A study of Mus musculus with 12 samples.

Results

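Chaperones and heat shock proteins were followed in cultured mammary epithelial cells of C57BL/6 mice. A gene belonged to the set if its symbol began with Hspa, Hspb, Hspd, Hspe, Hsph, Dnaja, Dnajb, Dnajc or Cct and a number, or was Hsf1, Hsf2, Bag3, Stip1 or Tcp1, and 6 chaperones of the endoplasmic reticulum (Hspa5, Hspa13, Hsp90b1, Dnajb9, Dnajb11 and Dnajc3) were left out. This gave 79 of the 28427 gene rows, which carried 78 symbols, since Hspa14 had 2 rows. By role they were 2 heat shock factors, 13 rows of the Hsp70 and Hsp110 families, 42 J proteins (4 Dnaja, 11 Dnajb and 27 Dnajc), the mitochondrial pair Hspd1 and Hspe1, 10 rows of the cytosolic chaperonin CCT, 8 small heat shock proteins and the cochaperones Bag3 and Stip1. The set is not purely cytosolic: Hspa9, Hspd1, Hspe1, Dnaja3 and Dnajc19 act in mitochondria, and Dnajc1 and Dnajc10 in the endoplasmic reticulum. The main cytosolic Hsp90 genes, Hsp90aa1 and Hsp90ab1, are not matched by the symbol pattern and are described beside the members.

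Chaperones bind newly made or damaged proteins and help them reach or regain their shape. Hsp70 proteins clamp onto exposed stretches of a client in a cycle driven by ATP. J proteins bring them clients and speed the cycle, and exchange factors such as the Hsp110 proteins and Bag3 reset it. Clients can then pass to Hsp90 by way of Stip1, or be folded inside the barrel of a chaperonin, of which CCT is the one that folds actin and tubulin. When unfolded proteins build up, Hsf1 binds heat shock elements, which are inverted repeats of the letters GAA, and drives a fast rise of Hspa1a, Hspa1b, Dnajb1, Hspb1 and Hsph1 above the constitutive Hsp70, Hspa8.

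The series holds 4 groups of 3 libraries, described as biological replicates: spheroids at 96 h, monolayers at 96 h, spheroids at 48 h and monolayers at 48 h. Spheroids grew embedded in Matrigel, a basement membrane gel, and monolayers on dishes coated with collagen, so that culture format and matrix cannot be told apart. Progesterone at 1 µM was in the medium of every group, as was prolactin at 1 µg/mL, and the protocol gives a renewal after 48 h for the gels and states none for monolayers. Whether replicates stem from separate animals is not given, so p-values measure the spread between these libraries. Library totals ran from 7674105 to 13554497 estimated counts, and the first principal component, with 59.6% of the variance, set all monolayers apart from all spheroids. The 6 mammary epithelial markers (Krt8, Krt18, Krt5, Krt14, Epcam and Cdh1) were all expressed, with sums from 4070 to 10700 counts scaled to a common depth (CPM, on library sizes scaled with TMM factors so that most genes even out). Fibroblast markers were present as well, with sums of 570 to 619 CPM in 96 h spheroids, 1690 to 2300 CPM in 96 h monolayers, 1600 to 1800 CPM in 48 h spheroids and 6970 to 7640 CPM in 48 h monolayers.

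Promoters of 5 members are shown first, because the letters that Hsf1 is known to bind can be read in them. All 5 hold a match, but the choice was made with the gene values known and, for Hspb1, also for its direction. RefSeq windows of build GRCm38.p6, from 250 bases before to 50 bases after the transcript start, were at hand for 65 of the 78 symbols. The element was searched as 3 units, GAANNTTCNNGAA or TTCNNGAANNTTC, and as 2 units, GAANNTTC or TTCNNGAA, each on both strands, and every 3-unit match also counts as a 2-unit match. The 3-unit form was in 4 of 65 members (6.15%), against 0.662% of 27025 genes, and the 2-unit form was in 21 of 65 members (32.3%), against 17% of all genes. Capitals mark the matches below, and each sequence runs 5′ to 3′ along the gene and stops before its transcript start.
Hspa1b, chr17:34959239-34959388, minus strand: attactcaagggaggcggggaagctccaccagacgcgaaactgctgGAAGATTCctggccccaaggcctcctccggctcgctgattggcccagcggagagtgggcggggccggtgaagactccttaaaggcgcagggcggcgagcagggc
Hspa1a, chr17:34972157-34972306, minus strand: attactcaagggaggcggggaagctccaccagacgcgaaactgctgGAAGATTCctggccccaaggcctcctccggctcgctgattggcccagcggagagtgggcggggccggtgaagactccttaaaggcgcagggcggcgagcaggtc
Hspd1, chr1:55087993-55088092, minus strand: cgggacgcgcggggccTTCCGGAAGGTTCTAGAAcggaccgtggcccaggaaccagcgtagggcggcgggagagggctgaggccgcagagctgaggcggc
Hspb1, chr5:135887769-135887868, plus strand: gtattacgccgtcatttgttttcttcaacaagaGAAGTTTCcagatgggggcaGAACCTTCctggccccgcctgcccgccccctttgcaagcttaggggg
Dnajb6, chr5:29735758-29735867, plus strand: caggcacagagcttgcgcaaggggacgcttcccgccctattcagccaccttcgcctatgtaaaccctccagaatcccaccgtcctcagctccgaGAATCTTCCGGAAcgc
The inducible pair Hspa1a and Hspa1b is near identical here, with 149 of 150 printed bases the same and a 2-unit match in each at positions -104 to -97 from the start. In the windows used, Hspd1 and Hspe1 lie head to head, their starts 216 bases apart, and the run of units shown for Hspd1 is shared by both windows. The annotated Hspd1 gene reaches to position 55088243, past the printed stretch, so the distance holds only for the transcript start used here. Hspb1 is shown because it holds 2 separate 2-unit matches and yet went the other way from Hspa1b in the data. Dnajb6 holds a 3-unit match too. Hsph1 carries the letters TTCTGGAAAGTTC after its start, at chr5:149636288-149636300 on the minus strand, and Dnajb1, a classical heat shock gene, had no match in its window. These letters are a description of the windows, and no binding was measured.

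Per length of gene, in FPKM (fragments scaled to gene length and to library depth), the constitutive Hsp70 gene Hspa8 stood highest, with a mean of 955 FPKM over the 12 libraries. The small heat shock gene Hspb1 followed at 401 FPKM, then Hspe1, Hspa9 and Hspd1 of the mitochondria at 279, 230 and 216 FPKM. The 8 expressed CCT subunits came next, between 109 FPKM for Cct7 and 206 FPKM for Cct2, with Dnajb6 at 109 FPKM among them. The inducible Hsp70 genes were well below Hspa8: Hspa1b averaged 83.7 FPKM in 96 h spheroids, 20.6 in 96 h monolayers, 61.5 in 48 h spheroids and 12.7 in 48 h monolayers. Of the 79 rows, 69 passed the filter on low counts and were tested. The other 10 (Cct6b, Cct8l1, Dnajb7, Dnajb8, Dnajb13, Dnajc5b, Dnajc5g, Hspa1l, Hspb3 and Hspb9) had at most 17 counts over all libraries, and most of them are known from testis or muscle. Together the members held 1% of all counts in 96 h spheroids, 0.877% in 96 h monolayers, 1.04% in 48 h spheroids and 0.936% in 48 h monolayers.

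**Figure D1:**
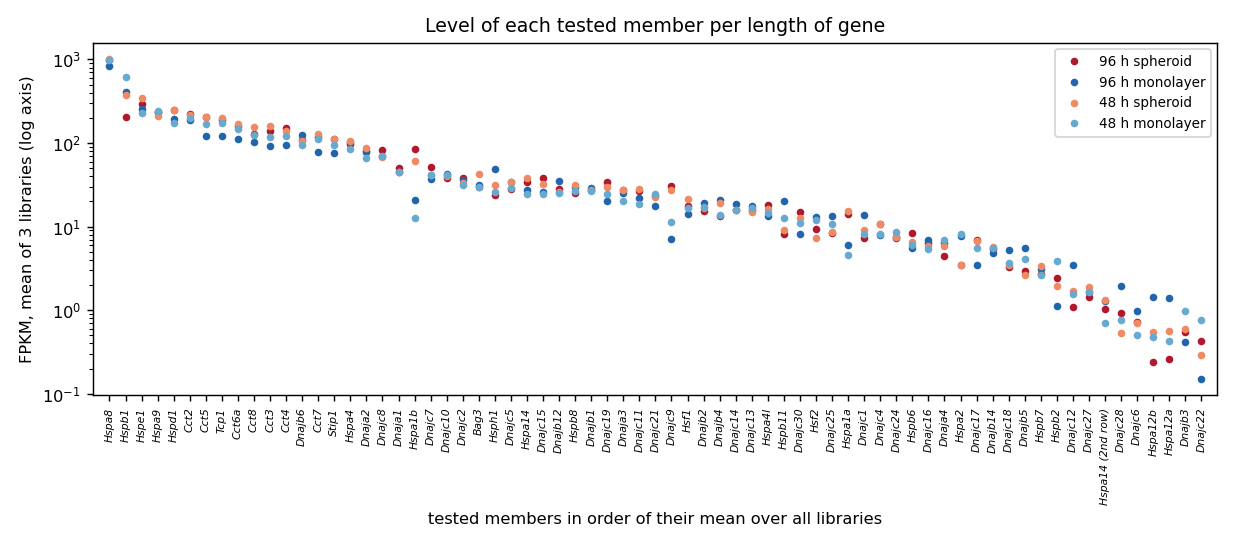
Level of each tested member in FPKM (log axis, mean of 3 libraries) in order of its mean over all libraries, with a colour for each group. Hspa8 leads at 955 FPKM on average, Hspb1 follows at 401 FPKM with its 96 h spheroids lowest, and the points of Hspa1b lie far apart, from 83.7 FPKM in 96 h spheroids to 12.7 FPKM in 48 h monolayers.

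At 96 h, 32 members rose and 20 fell in spheroids relative to monolayers by edgeR's quasi-likelihood test at an adjusted p (Benjamini-Hochberg over 13951 genes) under 0.05, which is 75.4% of those tested, against 73.8% of all genes tested. At 48 h, 18 rose and 13 fell (44.9%, against 57.9% of all genes). The median log2 fold change, spheroid over monolayer, was 0.15 at 96 h and 0.08 at 48 h, beside 0.00 and 0.05 over all genes. The share of members called was thus close to that of all genes at 96 h and below it at 48 h, a difference that was not tested. Large changes made up a smaller share than among all genes: 17.4% of tested members at 96 h and 8.7% at 48 h were called and differed by over 2-fold, against 29.8% and 17.9% of all genes. Over time, 5 members rose and 13 fell in spheroids at 96 h relative to 48 h (26.1%, against 39.8% of all genes), and 14 rose and 28 fell in monolayers (60.9%, against 61.3%). Among all genes, 30.1% rose and 31.3% fell over time in monolayers. The groups did not overlap for 57 members at 96 h, 35 at 48 h, 34 over time in spheroids and 44 over time in monolayers, where 78.9%, 60.0%, 53.8% and 63.8% of all genes did not overlap.

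How many members rose and how many fell varied with library scaling. With scaling by total count, the median log2 fold change over all genes shifted by 0.11 at 48 h, by 0.17 over time in monolayers and by -0.19 in the interaction, which is the format difference at 96 h less the format difference at 48 h. With it, 29 members rose and 10 fell at 48 h, and 27 rose and 18 fell over time in monolayers. DESeq2-type size factors gave 15 and 17 at 48 h. Upper-quartile scaling gave 19 and 22 over time in monolayers. At 96 h the split stayed between 29 and 22 and 32 and 20 under these scalings. The direction of a small change in the 48 h and monolayer comparisons is therefore relative to the TMM scale. No call among the 39 genes named by rule was reversed under any setting tried.

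**Figure D2:**
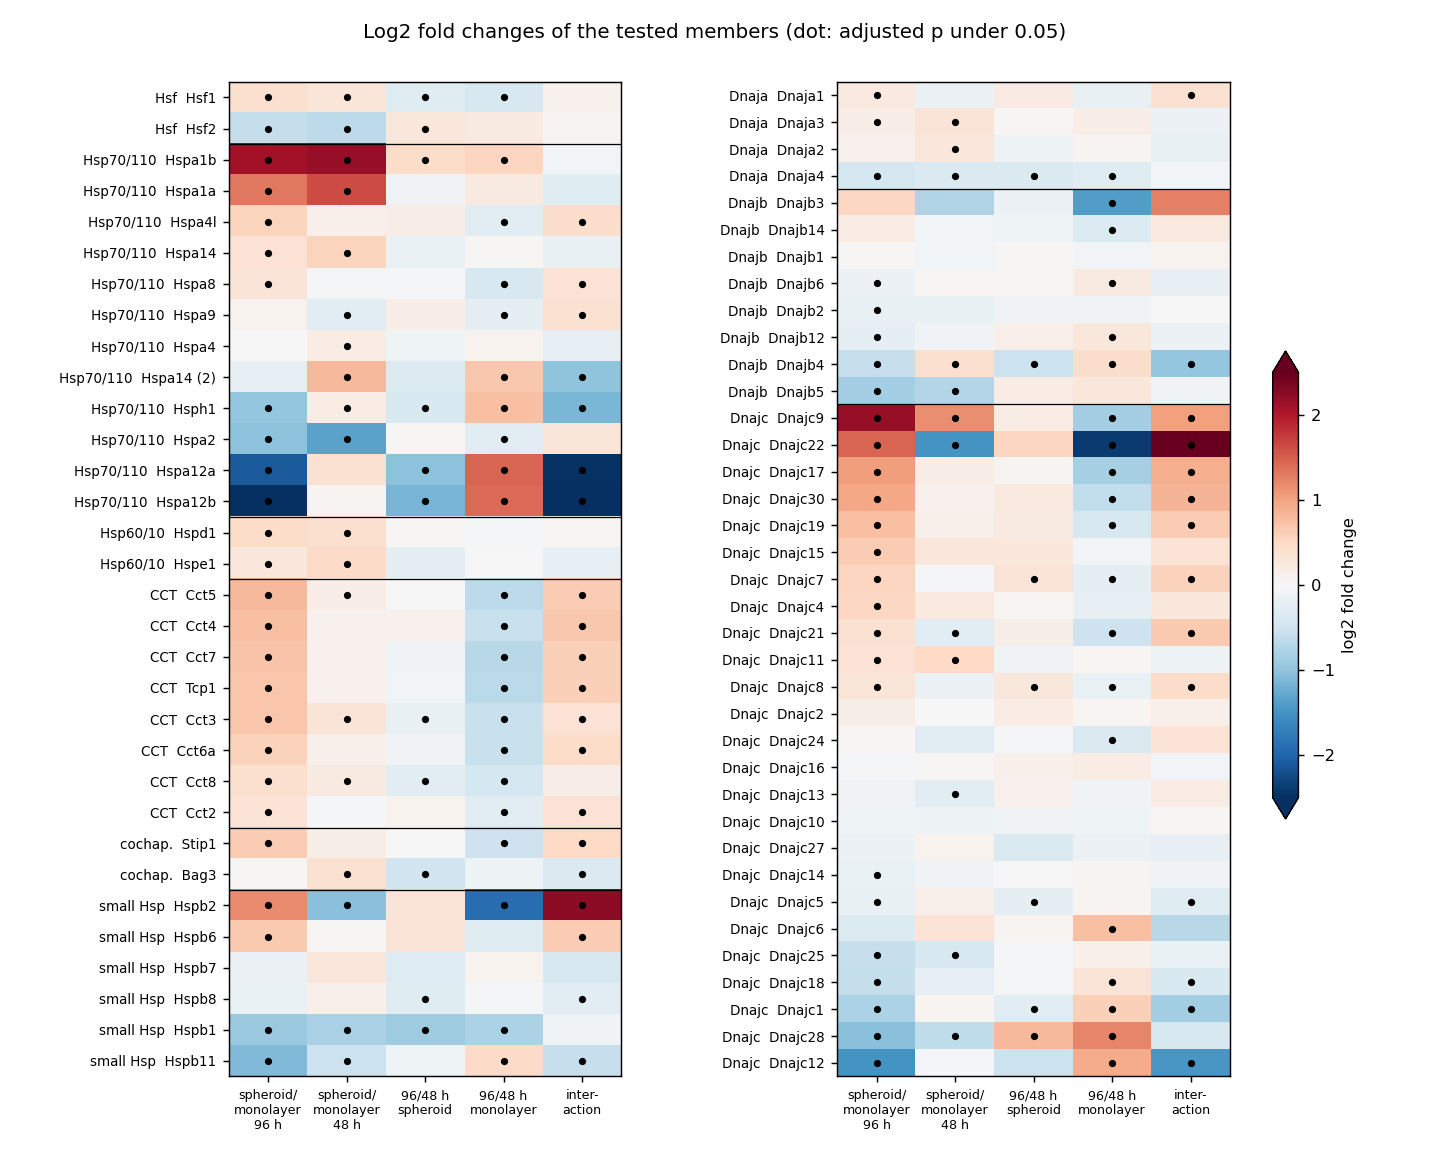
Log2 fold changes of the 69 tested members in 5 comparisons (colour, cut at 2.5 either way), ordered by role and by the change at 96 h, with a dot where the adjusted p is under 0.05. The 8 CCT subunits are red at 96 h and blue over time in monolayers, and Hspa1a and Hspa1b are red at both times; colours near white in the 48 h and monolayer columns can change sign with the scaling.

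The heat shock factors moved apart. Hsf1, the main regulator of the heat shock response, stood at 33.5, 30.6 and 29.2 CPM in 96 h spheroids, against 23.4, 22.9 and 23.7 CPM in 96 h monolayers, and at 38.2, 38 and 39.5 CPM in 48 h spheroids, against 29.4, 31 and 32.6 CPM in 48 h monolayers. Every spheroid library lay above every monolayer library of its time. Hsf1 was 1.33-fold higher in spheroids at 96 h (log2 0.41 ± 0.078 SE, adjusted p = 0.000113) and 1.24-fold higher at 48 h (log2 0.31 ± 0.0758, adjusted p = 0.00161), and it fell over time in spheroids (-0.31) and in monolayers (-0.41). Hsf2, a second factor of the family, was lower in spheroids, at 15.2 ± 0.36 CPM against 22.9 ± 1.03 CPM in monolayers at 96 h and 12.5 ± 1.5 CPM against 19.6 ± 1.43 CPM at 48 h (SD, n = 3 each). Its log2 fold changes were -0.59 ± 0.0959 (adjusted p = 2.27e-05) and -0.65 ± 0.104 (adjusted p = 3.21e-05). From log2 FPKM values the 96 h difference did not pass (-0.43, adjusted p = 0.101). The rise of Hsf2 over time in spheroids (0.28, adjusted p = 0.0416) did not hold without any 1 of 5 spheroid libraries, all but replicate 2 at 48 h, with adjusted p from 0.0634 to 0.185 and log2 values from 0.21 to 0.3. Because these are bulk samples, fewer cells of a type and less RNA per cell cannot be told apart in any of these comparisons.

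The inducible Hsp70 genes were higher in spheroids at both times. Hspa1b stood at 234, 238 and 240 CPM in 96 h spheroids, against 60.4, 45.8 and 59.3 CPM in 96 h monolayers. At 48 h it stood at 183, 170 and 163 CPM in spheroids, against 34.7, 38.6 and 41.8 CPM in monolayers. The formats were far apart at both times, 4.27-fold at 96 h (log2 2.09 ± 0.0886, adjusted p = 2.28e-13) and 4.49-fold at 48 h (log2 2.17 ± 0.0919, adjusted p = 4.38e-13). Hspa1a had 40.6, 40.7 and 39.8 CPM in 96 h spheroids, against 16.5, 15 and 16.8 CPM in 96 h monolayers, and 46.7, 36.8 and 45.3 CPM in 48 h spheroids, against 14.3, 15.3 and 11.9 CPM in 48 h monolayers, 2.5-fold and 3.1-fold higher (adjusted p = 1.31e-09 and 1.65e-10). The genes are known as near-identical copies, which makes the split of reads between them uncertain, and the identity of their transcripts was not measured here. Their summed level is free of that split and was 274, 279 and 280 CPM in 96 h spheroids, against 76.9, 60.9 and 76 CPM in 96 h monolayers (3.9-fold), and 230, 207 and 209 CPM in 48 h spheroids, against 49, 54 and 53.7 CPM in 48 h monolayers (4.12-fold). Over time Hspa1b rose in spheroids (0.46, adjusted p = 0.000207) and in monolayers (0.53, adjusted p = 0.000108), and the format effect did not differ between times (interaction -0.07 ± 0.126, adjusted p = 0.656). Hspa1a did not pass over time (-0.09 in spheroids and 0.22 in monolayers) or in the interaction (-0.31 ± 0.148, adjusted p = 0.0834).

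Other heat-inducible genes had other patterns. Dnajb1, the J protein that Hsf1 induces together with Hsp70, was at 62.6 ± 2.38 CPM in 96 h spheroids, 61.9 ± 3.78 in 96 h monolayers, 61.7 ± 5.27 in 48 h spheroids and 64.5 ± 2.2 in 48 h monolayers (SD, n = 3 each). It passed no comparison, with log2 values from -0.07 to 0.08, SE of 0.0716 to 0.102 and adjusted p from 0.457 to 0.85. Hsph1, an Hsp110 that exchanges the nucleotide of Hsp70, had 89.5, 78.4 and 85.2 CPM in 96 h spheroids, against 178, 170 and 145 CPM in 96 h monolayers, 1.95-fold lower (log2 -0.96 ± 0.0748, adjusted p = 1.46e-09). At 48 h it stood at 111 ± 3.61 CPM in spheroids and 97.5 ± 2.51 CPM in monolayers (log2 0.18, adjusted p = 0.0478). That call was lost when any library of 48 h was left out other than monolayer replicate 3, and on leaving out monolayer replicate 2 or any spheroid at 96 h, with log2 values from 0.16 to 0.2 and adjusted p from 0.0509 to 0.146. Hsph1 fell over time in spheroids (-0.39) and rose in monolayers (0.75), and its format effect differed between times by -1.14 ± 0.106 (adjusted p = 6.03e-08).

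**Figure D3:**
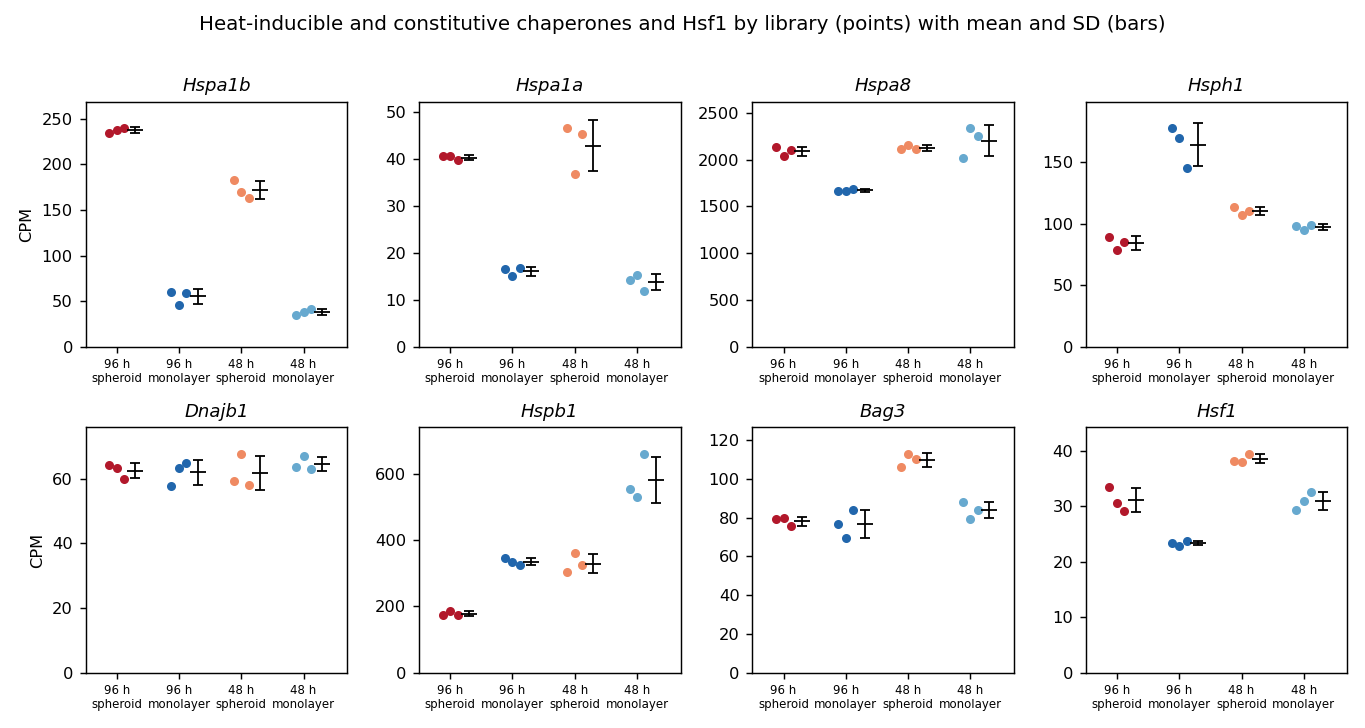
CPM of 8 members in each library (points) with the group mean and SD (bars, n = 3) for spheroids and monolayers at 96 h and then at 48 h. Hspa1b and Hspa1a are higher in every spheroid library, Hspb1 is lower in spheroids than in monolayers of the same time, and the group means of Dnajb1 lie between 61.7 and 64.5 CPM.

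Across the Hsp70 and Hsp110 families, 12 of 13 rows were tested. In spheroids 5 rose and 4 fell at 96 h (41.7% and 33.3%), near the 37.3% and 36.5% of all genes. At 48 h 6 rose and 2 fell (50% and 16.7%, against 31.6% and 26.4% of all genes), or 4 and 2 with DESeq2-type size factors. The 6 include both rows of Hspa14, Hsph1, whose call was lost as given above, and Hspa4 (0.19, adjusted p = 0.0227), whose groups overlapped. Hspa8, the housekeeping Hsp70, was at 2130, 2040 and 2100 CPM in 96 h spheroids, against 1670, 1660 and 1690 CPM in 96 h monolayers (log2 0.32 ± 0.0653, adjusted p = 0.000233). At 48 h its groups overlapped (2130 ± 27.7 CPM in spheroids and 2200 ± 165 CPM in monolayers, adjusted p = 0.516), and over time it fell in monolayers (-0.40, adjusted p = 4.44e-05) and did not pass in spheroids (-0.02). Its interaction was 0.37 (adjusted p = 0.00241), which did not pass with total-count scaling or log2 FPKM values (adjusted p up to 0.115). Hspa2, a relative best known from male germ cells, was lower in spheroids at both times, 8.95 ± 1.8 CPM against 18.3 ± 0.943 CPM in monolayers at 96 h and 8.82 ± 0.348 CPM against 22.2 ± 0.47 CPM at 48 h (log2 -1.03 and -1.34, adjusted p = 2.9e-07 and 2.24e-08). Hspa14, an Hsp70 bound to ribosomes, was higher at both times in its main row (0.37 and 0.55, adjusted p = 0.000274 and 5.84e-06). Its second, low row was at 4.59 ± 0.466 CPM in spheroids and 5.27 ± 0.361 CPM in monolayers at 96 h, which did not pass, and was higher at 48 h (0.81, adjusted p = 0.00114), so its format effect differed between times (-1.01, adjusted p = 0.00285). Over time in monolayers 5 rows of these families rose and 4 fell, or 8 and 1 with total-count scaling. On the TMM scale that is 41.7% and 33.3%, against 30.1% and 31.3% of all genes. In spheroids 1 rose and 3 fell over time (8.33% and 25%, against 19.3% and 20.5% of all genes).

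The distant relatives Hspa12a and Hspa12b, the second of which is known from endothelial cells, were low and moved together. Hspa12a had 1.76, 1.23 and 1.63 CPM in 96 h spheroids, against 7.12, 6.51 and 6.17 CPM in 96 h monolayers, and Hspa12b had 0.459, 0.905 and 0.743 CPM against 3.84, 4.01 and 4.23 CPM. They were 4.25-fold and 5.69-fold lower in spheroids (log2 -2.09 ± 0.229 and -2.51 ± 0.328, adjusted p = 1.64e-07 and 1.65e-06). At 48 h Hspa12a averaged 3.12 CPM in spheroids and 2.39 CPM in monolayers, Hspa12b 1.61 CPM and 1.51 CPM, and neither passed. Over time they rose in monolayers (1.45 and 1.42, adjusted p = 1.69e-05 and 0.000475) and fell in spheroids (-1.02 and -1.16, adjusted p = 0.00397 and 0.023). The fall of Hspa12b in spheroids did not hold without replicate 2 or 3 at 48 h or replicate 1 or 3 at 96 h (log2 -0.78 to -1.2, adjusted p 0.0519 to 0.176). Of 5 endothelial markers (Pecam1, Cdh5, Kdr, Tek and Emcn), all 5 fell in spheroids at 96 h and over time in spheroids. Among all genes, 36.5% and 20.5% fell there. Over time in monolayers 3 markers rose and 1 fell, where 30.1% and 31.3% of all genes did. At 48 h 3 markers fell in spheroids (median log2 -0.50), where 26.4% of all genes fell and neither Hspa12 gene passed. Their summed level was 6.01 to 7.24 CPM in 96 h spheroids, 63.7 to 65.5 in 96 h monolayers, 24.1 to 33.5 in 48 h spheroids and 38.3 to 53 in 48 h monolayers. Their part in the result was not tested.

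J proteins split in both directions: of 42 members 37 were tested, and in spheroids 13 rose and 13 fell at 96 h, with 5 and 7 at 48 h (median log2 0.02 and -0.05). At 96 h 35.1% rose and 35.1% fell, near the 37.3% and 36.5% of all genes. At 48 h 13.5% rose and 18.9% fell, against 31.6% and 26.4% of all genes. The 48 h split moved with scaling. Of 25 tested Dnajc genes, 2 rose and 5 fell on the TMM scale, 5 and 2 with total-count scaling, and 2 and 8 with DESeq2-type size factors. Dnajc9, a cochaperone that handles histones H3 and H4, rose most. It had 49.2, 48.9 and 50.5 CPM in 96 h spheroids, against 10.3, 10.4 and 12.1 CPM in 96 h monolayers, and 44.6, 44.1 and 42.9 CPM in 48 h spheroids, against 17.7, 18.6 and 22.5 CPM in 48 h monolayers. The change was 4.52-fold at 96 h (log2 2.18 ± 0.0949, adjusted p = 3.49e-13) and 2.23-fold at 48 h (log2 1.16 ± 0.0891, adjusted p = 2.22e-09), and the difference between them passed (interaction 1.02, adjusted p = 4.02e-06). In monolayers Dnajc9 fell over time (-0.84, adjusted p = 1.74e-06), whereas in spheroids it did not pass (0.18, adjusted p = 0.0938).

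Other J proteins that rose in spheroids at 96 h included parts of mitochondria and of the ribosome and splicing machinery. Dnajc19, a part of the mitochondrial import motor, was at 21.6 ± 0.553 CPM in 96 h spheroids, against 12.8 ± 0.189 CPM in 96 h monolayers (log2 0.76, adjusted p = 7.41e-06). Dnajc30, also mitochondrial, was at 17 ± 1.65 CPM against 8.67 ± 0.893 CPM (0.96, adjusted p = 2.9e-06), and Dnajc17 at 6.79 ± 0.679 CPM against 3.27 ± 0.244 CPM (1.05, adjusted p = 0.000208). None of these 3 passed at 48 h, where the log2 values were 0.13, 0.11 and 0.16, and each fell over time in monolayers (-0.41, -0.61 and -0.83). The fall of Dnajc19 was lost with total-count scaling and without 48 h monolayer replicate 3. Dnajc7, which can hold Hsp70 and Hsp90 at once, was at 114 ± 3.47 CPM in 96 h spheroids and 78.8 ± 7.44 CPM in 96 h monolayers (0.53, adjusted p = 7.01e-06), and rose over time in spheroids (0.33, adjusted p = 0.00249). Its fall over time in monolayers (-0.24, adjusted p = 0.0134) did not hold without 48 h replicate 3 (-0.16, adjusted p = 0.0683) or 96 h replicate 2 (-0.18, adjusted p = 0.0796), nor with total-count or upper-quartile scaling. Dnajc21, needed for the large ribosomal subunit, rose at 96 h (0.38) and fell at 48 h (-0.28), with an interaction of 0.66 (adjusted p = 0.000244), and its 48 h call was lost without monolayer replicate 3 or spheroid replicate 2. Dnajc8, bound to the spliceosome, was at 112 ± 3.23 CPM in 96 h spheroids and 90.4 ± 2.52 CPM in 96 h monolayers (0.31, adjusted p = 0.00078).

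Among J proteins lower in spheroids, Dnajc12, a cochaperone of the aromatic amino acid hydroxylases, was at 1.15, 1.73 and 1.26 CPM in 96 h spheroids, against 3.84, 3.76 and 4.06 CPM in 96 h monolayers (log2 -1.5, adjusted p = 4.57e-05). At 48 h it did not pass (-0.05), it rose over time in monolayers (0.92, adjusted p = 0.00402), and its interaction was -1.45 (adjusted p = 0.00411). Dnajc28 was lower in spheroids (-1.04 at 96 h, adjusted p = 8.53e-05, and -0.64 at 48 h, adjusted p = 0.0328) and rose over time in either format (0.82 in spheroids and 1.22 in monolayers). Its 48 h call was lost without any 1 of the 48 h libraries other than monolayer replicate 1 (adjusted p 0.0513 to 0.0925). Dnajc1 of the endoplasmic reticulum fell to 40.9 ± 1.19 CPM in 96 h spheroids, against 71.4 ± 2.36 CPM in 96 h monolayers (-0.80, adjusted p = 1.85e-09). Dnajb5 was lower at both times (-0.84 and -0.74, adjusted p = 8.54e-06 and 0.000134).

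Dnajb4, a cytosolic J protein close to Dnajb1, reversed with time. It had 32, 32.2 and 34.3 CPM in 96 h spheroids, against 45.7, 49.1 and 52 CPM in 96 h monolayers, but 52.1, 44.4 and 45.5 CPM in 48 h spheroids, against 34.9, 35.1 and 37.9 CPM in 48 h monolayers. The groups did not overlap at either time (log2 -0.57 and 0.40, adjusted p = 2.78e-06 and 0.000305), and the interaction was -0.97 (adjusted p = 8.96e-07). Dnajc22 reversed the other way on very few reads: 7, 8 and 9 counts in 96 h spheroids, against 5, 1 and 1 counts in 96 h monolayers, and 5, 3 and 4 counts in 48 h spheroids, against 12, 15 and 13 counts in 48 h monolayers. Its log2 fold changes were 1.46 at 96 h (adjusted p = 0.0155) and -1.47 at 48 h (adjusted p = 0.00537), with -2.39 over time in monolayers and an interaction of 2.92 (adjusted p = 0.00109). The 96 h value was 2.46 without monolayer replicate 1, and it did not pass without replicate 2 (1.26, adjusted p = 0.0525) or 3 (1.07, adjusted p = 0.102). Without replicate 1 the time change was -3.39 and the interaction 3.92. Dnajb3, at 3, 4 and 5 counts in 96 h monolayers and 12, 8 and 14 counts in 48 h monolayers, fell there over time (-1.40, adjusted p = 0.0226), but not without 96 h replicate 1 or 48 h replicate 1 or 3 (-1.11 to -1.31, adjusted p 0.0605 to 0.111).

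The 4 Dnaja proteins, of which Dnaja1 and Dnaja2 are the general partners of cytosolic Hsp70, changed little. Dnaja2 rose at 48 h (0.29, adjusted p = 0.0018) and was at 229 ± 6.86 CPM in spheroids and 212 ± 5.07 CPM in monolayers at 96 h, which did not pass. Dnaja1 rose at 96 h (0.25, adjusted p = 0.00991), though not without monolayer replicate 2 or with total-count or upper-quartile scaling, where adjusted p reached 0.0935. Dnaja4 was lower in spheroids at both times (-0.43 and -0.37) and fell over time in spheroids (-0.37, adjusted p = 0.0146) and in monolayers (-0.30, adjusted p = 0.0191). Its time calls did not hold in spheroids without replicate 1 or 2 at 48 h or replicate 2 at 96 h (-0.29 to -0.33, adjusted p 0.058 to 0.0763), nor in monolayers without replicate 2 at 48 h or 3 at 96 h (-0.24 and -0.27, adjusted p 0.0998 and 0.0659). The monolayer call was also lost with total-count scaling, upper-quartile scaling and log2 FPKM values.

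The mitochondrial chaperonin Hspd1 and its lid Hspe1 were higher in spheroids. Hspd1 had 564, 573 and 615 CPM in 96 h spheroids, against 435, 416 and 428 CPM in 96 h monolayers, and 599, 565 and 566 CPM in 48 h spheroids, against 399, 414 and 489 CPM in 48 h monolayers. No libraries overlapped, and the log2 fold changes were 0.45 ± 0.074 (adjusted p = 2.23e-05) and 0.41 ± 0.0741 (adjusted p = 0.000113). Hspe1 stood at 215 ± 4.43 CPM in spheroids and 178 ± 17 CPM in monolayers at 96 h, and at 250 ± 10.2 CPM and 179 ± 26.6 CPM at 48 h (0.27 and 0.48, adjusted p = 0.0118 and 0.000171). The 96 h value of Hspe1 did not pass without monolayer replicate 3 (0.21, adjusted p = 0.0632) or with total-count or upper-quartile scaling. Neither gene passed over time or in the interaction.

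The subunits of the CCT chaperonin moved together. At 96 h all 8 tested subunits rose in spheroids (median log2 0.69), where 37.3% of all genes rose. Over time in monolayers all 8 fell (median -0.55), where 31.3% of all genes fell. Over time in spheroids 2 fell (25%), near the 20.5% of all genes. The summed level of the subunits was 2710, 2730 and 2780 CPM in 96 h spheroids, against 1800, 1790 and 1810 CPM in 96 h monolayers. At 48 h it was 2860, 2900 and 2830 CPM in spheroids, against 2390, 2620 and 2830 CPM in monolayers. The 96 h monolayers thus stood below every other library, while 48 h monolayer replicate 3 was level with the lowest 48 h spheroid.

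By subunit, the log2 fold change of spheroids over monolayers at 96 h was 0.82 for Cct5, 0.76 for Cct4, 0.71 for Cct7, 0.69 for Tcp1 and Cct3, 0.58 for Cct6a, 0.41 for Cct8 and 0.34 for Cct2, with SE of 0.065 to 0.0741 and adjusted p of at most 0.000139. Tcp1, the alpha subunit, had 444, 439 and 452 CPM in 96 h spheroids, against 276, 283 and 267 CPM in 96 h monolayers, and Cct2, the beta subunit, had 434, 433 and 446 CPM against 345, 337 and 357 CPM. At 48 h Cct3 (0.33), Cct8 (0.23) and Cct5 (0.17) rose, and Cct6a (0.12), Cct7 (0.11), Tcp1 (0.10), Cct4 (0.10) and Cct2 (-0.02) did not pass, although 7 of 8 rose there with total-count scaling. The 3 that rose on the TMM scale are 37.5%, near the 31.6% of all genes. Over time in monolayers the values were -0.70 for Cct7, -0.67 for Tcp1, -0.65 for Cct5, -0.56 for Cct4, -0.55 for Cct3 and Cct6a, -0.44 for Cct8 and -0.28 for Cct2. With total-count scaling 7 of 8 still fell, and Cct2 did not pass. In spheroids Cct8 (-0.27, adjusted p = 0.00409) and Cct3 (-0.18, adjusted p = 0.0286) fell over time, while Cct4 (0.11), Cct2 (0.08), Cct5 (0.00), Tcp1 (-0.07), Cct6a (-0.09) and Cct7 (-0.09) did not pass. The call of Cct3 there was lost without any spheroid library but replicate 1 at 48 h (-0.16 to -0.2, adjusted p 0.0517 to 0.103), and that of Cct5 at 48 h without monolayer replicate 1 or spheroid replicate 1 or 2 (0.11 to 0.17, adjusted p 0.0585 to 0.132).

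The difference between the formats was larger at 96 h than at 48 h for 7 of 8 subunits: 0.67 for Cct4, 0.64 for Cct5, 0.60 for Cct7 and Tcp1, 0.46 for Cct6a and 0.36 for Cct3 and Cct2, with adjusted p from 1.14e-05 to 0.00317. Among all genes, 26.9% had a positive interaction past the threshold. Cct8 did not pass (0.17, adjusted p = 0.146), and with total-count scaling 5 of 8 passed, with Cct2 and Cct3 lost. Within the complex, Cct2 was the highest and Cct7 the lowest subunit per length in each group. They were 1.87-fold apart in 96 h spheroids, 2.41-fold in 96 h monolayers, 1.66-fold in 48 h spheroids and 1.81-fold in 48 h monolayers. The spread was thus widest in 96 h monolayers. Over all genes tested, 37.3% rose at 96 h and 31.3% fell over time in monolayers. Epithelial markers moved in the same direction as CCT in these 2 comparisons: all 6 fell over time in monolayers, and 5 of 6 rose in spheroids at 96 h. At 48 h 2 markers rose and 4 fell in spheroids, where 3 CCT subunits rose and none fell. Over time in spheroids 3 markers rose and 1 fell, where 2 CCT subunits fell and none rose. The markers' sum was 5980 to 6250 CPM in 96 h spheroids, 4070 to 4350 in 96 h monolayers, 5740 to 6130 in 48 h spheroids and 9370 to 10700 in 48 h monolayers. The part of these markers in the CCT values was not tested.

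**Figure D4:**
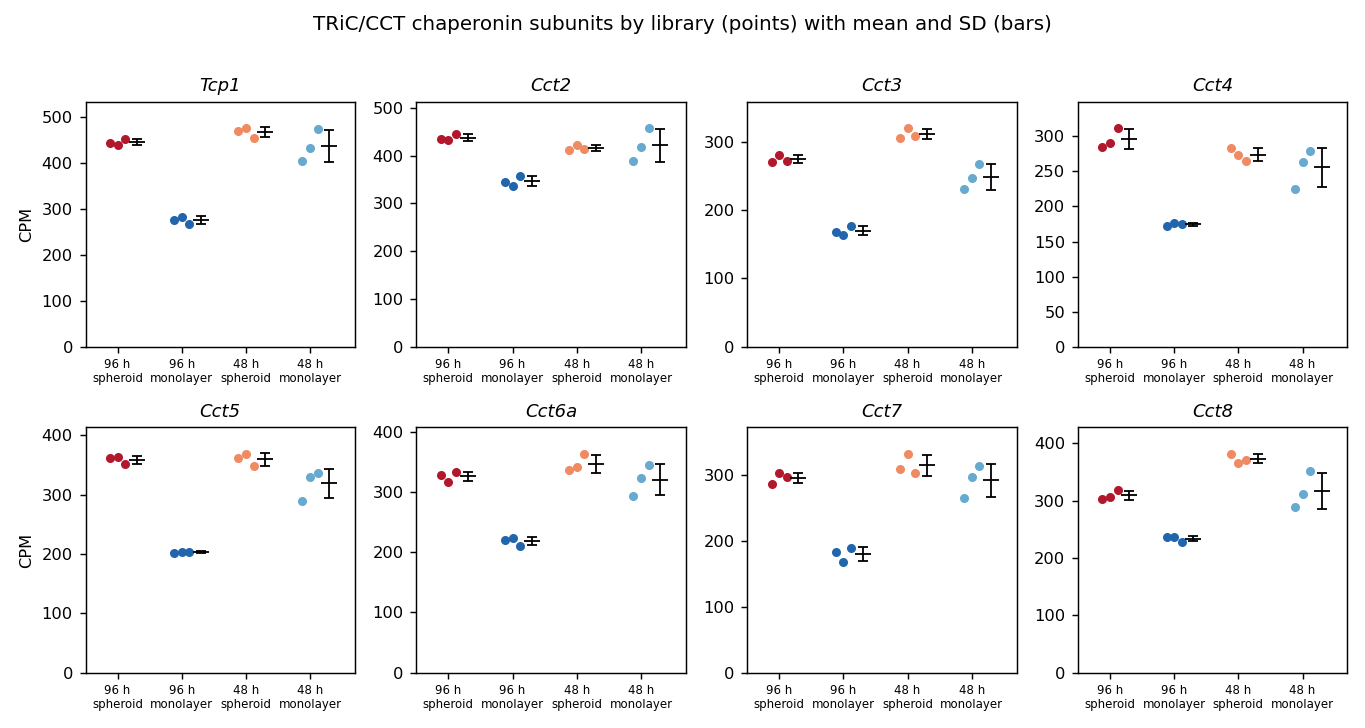
CPM of the 8 tested CCT subunits in each library (points) with the group mean and SD (bars, n = 3) for spheroids and monolayers at 96 h and then at 48 h. In every panel the 3 libraries of 96 h monolayers are the lowest, and 48 h monolayers spread more than the other groups.

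Of the genes that work with CCT, prefoldin, which carries actin and tubulin to it, and the phosducin-like proteins were listed with 11 symbols, of which 8 were tested. In spheroids 3 rose and none fell at 96 h, a share of 37.5% rising, near the 37.3% of all genes. None rose and 4 fell at 48 h, where 26.4% of all genes fell. Over time 5 rose in spheroids, where 19.3% of all genes rose. In monolayers 1 rose and 5 fell over time, where 30.1% and 31.3% of all genes did. Pfdn1, a prefoldin subunit, was at 58.9 ± 4.44 CPM in 96 h spheroids, against 39.5 ± 6.27 CPM in 96 h monolayers, and at 39.2 ± 2.06 CPM in 48 h spheroids, against 52.8 ± 5.74 CPM in 48 h monolayers (log2 0.57 and -0.43, adjusted p = 5.61e-05 and 0.00155). Pdcl3, a phosducin-like CCT partner, was at 51.2 ± 2.86 CPM against 56.2 ± 1.92 CPM at 96 h, which did not pass, and 41.8 ± 1.08 CPM against 88.4 ± 15.9 CPM at 48 h (-1.08, adjusted p = 2.27e-08). At 48 h, where 4 genes of this list fell, no CCT subunit fell.

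Small heat shock proteins, which hold unfolded proteins without ATP, were led by Hspb1. It stood at 173, 186 and 173 CPM in 96 h spheroids, against 345, 333 and 325 CPM in 96 h monolayers, and at 302, 359 and 324 CPM in 48 h spheroids, against 552, 530 and 660 CPM in 48 h monolayers. It was 1.89-fold lower in spheroids at 96 h (log2 -0.92 ± 0.0833, adjusted p = 1.27e-08) and 1.77-fold lower at 48 h (-0.82 ± 0.0822, adjusted p = 8.27e-08). It also fell over time in spheroids (-0.89) and in monolayers (-0.80), and the difference between these did not pass (interaction -0.09 ± 0.116, adjusted p = 0.521). Hspb1 and Hspa1b thus differed between formats in opposite directions. Both promoters hold the 2-unit letters, as do 17% of all genes. Hspb1 was picked for display partly for its direction, so this contrast says nothing about the part of the letters, which was not tested.

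Of the other small members, Hspb8, the partner of Bag3, did not pass between formats (45.3 ± 1.5 CPM in spheroids and 51.1 ± 4.46 CPM in monolayers at 96 h, and 56.3 ± 1.38 CPM and 51.8 ± 4.17 CPM at 48 h) and fell over time in spheroids (-0.31, adjusted p = 0.00336). Hspb11, which works in the transport of cilia rather than as a chaperone, was lower in spheroids, with 4.91 ± 0.381 CPM against 10.6 ± 0.595 CPM in monolayers at 96 h (-1.11, adjusted p = 2.85e-06) and -0.54 at 48 h (adjusted p = 0.00912). The 48 h call of Hspb11 was lost without monolayer replicate 3 (-0.41, adjusted p = 0.0515). Hspb2, known from muscle, rested on 15, 26 and 15 counts in 96 h spheroids, against 5, 6 and 9 counts in 96 h monolayers, and 17, 9 and 7 counts in 48 h spheroids, against 24, 20 and 36 counts in 48 h monolayers. It rose at 96 h (1.19, adjusted p = 0.0187) and fell at 48 h (-1.04, adjusted p = 0.0224), and over time in monolayers it fell (-1.91, adjusted p = 0.00056). The 96 h call was lost without monolayer replicate 1 (0.90, adjusted p = 0.104) or spheroid replicate 2 (0.83, adjusted p = 0.116), and the 48 h call without monolayer replicate 3 (-0.77, adjusted p = 0.11) or spheroid replicate 2 (-0.97, adjusted p = 0.0669) or 3 (-0.83, adjusted p = 0.0981). Of 8 small members 6 were tested, and 2 rose and 2 fell at 96 h, against 0 and 3 at 48 h. At 96 h 33.3% rose and 33.3% fell, near the 37.3% and 36.5% of all genes. At 48 h 50% fell and none rose, against 26.4% and 31.6% of all genes. With total-count scaling 2 rose and 3 fell at 48 h.

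Cochaperones moved separately. Bag3, an exchange factor of Hsp70 that Hsf1 induces, was at 78.1 ± 2.38 CPM in 96 h spheroids, 76.6 ± 7.3 in 96 h monolayers, 109 ± 3.68 in 48 h spheroids and 83.8 ± 4.25 in 48 h monolayers. It was higher in spheroids at 48 h (0.38, adjusted p = 0.000128) and did not pass at 96 h (0.02), and it fell over time in spheroids (-0.49, adjusted p = 2.02e-05). Stip1, the bridge between Hsp70 and Hsp90, was at 242 ± 7.38 CPM in 96 h spheroids, 155 ± 11.9 in 96 h monolayers, 243 ± 14.5 in 48 h spheroids and 221 ± 9.63 in 48 h monolayers. It rose in spheroids at 96 h (0.64, adjusted p = 1.52e-07), did not pass at 48 h (0.14, adjusted p = 0.102) and fell over time in monolayers (-0.51, adjusted p = 5.26e-06). Stip1 thus had the same calls in these 3 comparisons as Cct2, Cct4, Cct6a, Cct7 and Tcp1. Members outside CCT, among them Hspa8, Dnajc17 and Dnajc30, had these calls too. The share of all genes with these calls was not computed.

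Of the Hsp90 genes outside the set, Hsp90ab1, the constitutive form, had 3510, 3420 and 3480 CPM in 96 h spheroids, against 2530, 2570 and 2530 CPM in 96 h monolayers (0.45, adjusted p = 2e-06), and was 0.16 higher at 48 h (adjusted p = 0.0242). The 48 h call was lost without monolayer replicate 2 or spheroid replicate 2 or 3 (0.15 to 0.16, adjusted p 0.0675 to 0.0751). Hsp90aa1, the inducible form, was at 1090 ± 29 CPM in spheroids and 960 ± 41.9 CPM in monolayers at 96 h (0.19, adjusted p = 0.0174) and did not pass at 48 h (-0.02). Its 96 h call was lost without monolayer replicate 2 (0.17, adjusted p = 0.0647) or spheroid replicate 3 (0.17, adjusted p = 0.0609). Of 24 listed genes of the Hsp90 machine 21 were tested, and in spheroids 14 rose and 3 fell at 96 h and 9 rose and 2 fell at 48 h. Of all genes, 37.3% rose and 36.5% fell at 96 h, and 31.6% rose and 26.4% fell at 48 h, beside 66.7% and 42.9% rising in this list. The immunophilin Fkbp4 (0.85 at 96 h), the phosphatase Ppp5c (0.78) and the activator Ahsa1 (0.49) were among those that rose at both times. The 3 that fell at 96 h were Ahsa2 (-0.75), Cdc37l1 (-0.46) and Tomm34 (-0.43). In a separate list of 10 Hsp70 partners, 5 rose and 3 fell at 96 h (50% and 30%). The 3 were Serpinh1 (-0.79), Sil1 (-0.45) and Hyou1 (-0.33). Hspbp1, an exchange factor of Hsp70, rose most in that list, to 43.3 ± 3.34 CPM in 96 h spheroids, against 18.1 ± 0.134 CPM in 96 h monolayers (1.26, adjusted p = 3.14e-09).

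Taking both times, 12 members rose in spheroids at each time, 8 fell at each, 3 rose at 96 h and fell at 48 h (Dnajc21, Dnajc22 and Hspb2), and 2 fell at 96 h and rose at 48 h (Hsph1 and Dnajb4). The share of all genes with such joint calls was not computed. Single libraries left out removed the 48 h calls of Hsph1, Dnajc21 and Hspb2 and the 96 h calls of Dnajc22 and Hspb2. The 48 h call of Hsph1 was also lost with DESeq2-type size factors and upper-quartile scaling, and that of Dnajc21 with total-count scaling. The interaction was positive for 22 members and negative for 12 (49.3% in all, against 53.3% of all genes tested), or 15 and 25 with total-count scaling. Hspa1b, Hspa1a, Hspb1, Hspd1 and Hsf1 did not pass in it, with adjusted p from 0.0834 to 0.742. The members with the largest interaction were Dnajc22 (2.92), Hspa12b (-2.58), Hspa12a (-2.47), Hspb2 (2.23) and Dnajc12 (-1.45), with group means of at most 6.6 CPM.

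**Figure D5:**
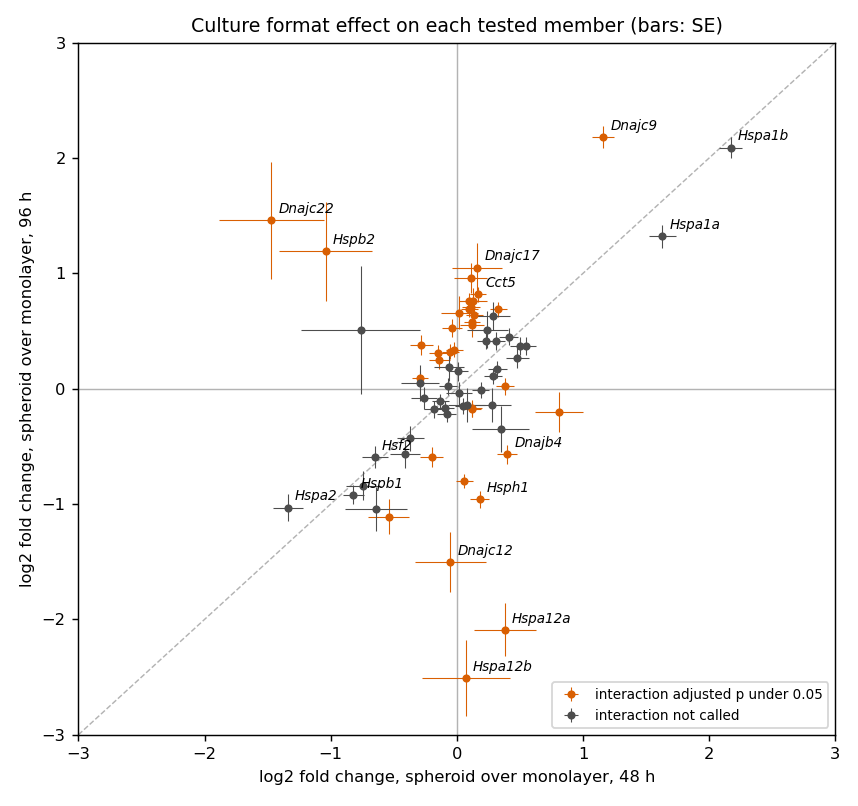
Log2 fold change, spheroid over monolayer, at 96 h (vertical) against 48 h (horizontal) for each tested member, with SE bars; orange marks an interaction with adjusted p under 0.05 on the TMM scale, and the dashed line marks equal effects. Hspa1b and Hspa1a lie near the line at the upper right, Hspb1 and Hspa2 near it at the lower left, and CCT subunits such as Cct5 lie above it.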

How the data were processed

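RNA-seq of 12 libraries was used. Per the submitters' processing notes, the authors used bcl2fastq 2.15.0, Bowtie 1.0.1 and RSEM 1.2.30 with UCSC genes of mouse build mm9. No source used here gives the strand setting. The deposited expected counts are RSEM estimates, already whole numbers, and the authors' second table holds log2(FPKM + 1), which was turned back to FPKM for levels. Genes were filtered in edgeR 4.0.16 (R 4.3.3) with a minimum count of 10 and a total of 15, scaled with TMM factors (0.923 to 1.07) and tested with edgeR's quasi-likelihood test in 1 fit of 4 groups, with Benjamini-Hochberg adjustment over 13951 genes and a threshold of 0.05. SE is the log2 fold change divided by the square root of F. A count of 3 equals 0.223 to 0.376 CPM, for counting error only. Alternatives were other scalings and filters, DESeq2 1.42.0, limma 3.58.1 on the log2 FPKM values, other fits and leaving out each library. The steps were tested on simulated data. Named genes were a fixed list of main chaperones, all CCT subunits and the 10 largest called changes per comparison (5 for the interaction), and other genes are examples chosen after their values were seen. Members and lists were chosen with earlier results of these data known. Nearly identical copies, and rows with more than 1 symbol, are uncertain in how reads were split.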

Additional observations from a re-analysis of the deposited data

Results flagged for a closer look

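The spheroid effect differed between the times by edgeR's quasi-likelihood test of the interaction for 23 named members. Values are the log2 fold change at 96 h minus that at 48 h. The value was positive for Dnajc22 (2.92), Hspb2 (2.23), Dnajc9 (1.02), Dnajc17 (0.90), Cct4 (0.67), Cct5 (0.64), Cct7 (0.60), Tcp1 (0.60), Dnajc7 (0.58), Stip1 (0.50), Cct6a (0.46), Hspa8 (0.37), Cct3 (0.36) and Cct2 (0.36). The value was negative for Hspa12b (-2.58), Hspa12a (-2.47), Dnajc12 (-1.45), Hsph1 (-1.14), the second row of Hspa14 (Hspa14_row2, -1.01), Dnajb4 (-0.97), Hspb11 (-0.58), Bag3 (-0.36) and Hspb8 (-0.29). The sign gives the direction of the shift and does not say at which time the effect was larger. Dnajc22 went from -1.47 at 48 h to 1.46 at 96 h, Hspb2 from -1.04 to 1.19, and Bag3 from 0.38 to 0.02. Without 48 h monolayer replicate 2, Dnajc17 did not pass (0.73, adjusted p = 0.0565). Hspb11 did not pass without any 1 of 6 libraries (monolayer replicates 1 and 2 and spheroid replicate 2 at 48 h, monolayer replicate 1 and spheroid replicates 1 and 2 at 96 h), with values from -0.41 to -0.57 and adjusted p from 0.0631 to 0.14. Hspb8 did not pass without any 1 of 7 (monolayer replicate 1 and spheroid replicates 2 and 3 at 48 h, monolayer replicates 2 and 3 and spheroid replicates 1 and 3 at 96 h), with values from -0.21 to -0.29 and adjusted p from 0.0531 to 0.119. Dnajc22 was at 3.92 without 96 h monolayer replicate 1.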

How the results depend on the processing

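No count of members called moved by over 1.5 times under any alternative. Leaving out 1 library at a time gave 46 to 53 calls between formats at 96 h (52 with all), 27 to 31 at 48 h (31), 15 to 24 over time in spheroids (18), 36 to 42 in monolayers (42) and 32 to 39 in the interaction (34). The calls kept in every setting tried were 41 of 52 at 96 h, 21 of 31 at 48 h, 13 of 18 over time in spheroids, 30 of 42 in monolayers and 23 of 34 in the interaction. Over 39 named genes, 3817 of 4026 values kept their side of the threshold, 140 lost and 69 gained a call, and none was reversed. Splits that moved were, at 48 h, 28 higher and 9 lower from log2 FPKM and 14 and 14 with only the groups compared. Log2 FPKM also gave 26 and 19 over time in monolayers and 14 and 24 in the interaction, where upper-quartile scaling gave 22 and 18 and no filter 22 and 9. Same-numbered libraries correlated from -0.11 to 0.0881. With 3 libraries per group, such values cannot settle whether equal numbers mark a shared origin. With the replicate block 53, 31, 20, 42 and 34 members were called, in the order above, and not every library correlated best with its own number. Depth limits Dnajc22, Hspb2, Dnajb3 and Hspa12b, which rest on few counts.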

Other observations

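The 6 chaperones of the endoplasmic reticulum that the symbol rule leaves out had 5 that fell and none that rose in spheroids at 96 h, where 36.5% of all genes fell, and 4 that fell and none that rose at 48 h, where 26.4% of all genes fell. Hspa5, the main Hsp70 of that compartment, was at 817, 853 and 914 CPM in 96 h spheroids, against 1360, 1470 and 1490 CPM in 96 h monolayers (log2 -0.74, adjusted p = 5.73e-08), and at 932, 952 and 945 CPM in 48 h spheroids, against 1450, 1650 and 1760 CPM in 48 h monolayers (-0.78, adjusted p = 4.68e-08). Dnajb9, a J protein of the unfolded protein response, was at 41.7, 43.1 and 46.2 CPM in 96 h spheroids, against 115, 120 and 115 CPM in 96 h monolayers (-1.42, adjusted p = 5.71e-12). It rose over time in monolayers (1.06) and did not pass in spheroids (0.12). Dnajb11 did not pass between formats (117 ± 1.3 CPM and 110 ± 5.2 CPM at 96 h, 137 ± 1.6 CPM and 132 ± 12.3 CPM at 48 h, spheroid and then monolayer).

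Hmox1, the stress-induced heme oxygenase once known as Hsp32, reversed between times. It had 173, 170 and 166 CPM in 96 h spheroids, against 1420, 1300 and 1260 CPM in 96 h monolayers, and 490, 526 and 508 CPM in 48 h spheroids, against 197, 228 and 258 CPM in 48 h monolayers (-2.97 and 1.16, adjusted p = 1.64e-15 and 8.86e-10). Serpinh1, the collagen chaperone Hsp47, was lower in spheroids at both times (-0.79 and -0.82, adjusted p = 1.71e-08 for each). Of 8 immediate early genes, 3 rose and 5 fell at 96 h (37.5% and 62.5%, against 37.3% and 36.5% of all genes). Dusp1 was at 6.88, 9.87 and 8.98 CPM in 96 h spheroids, against 56.6, 49.6 and 45.9 CPM in 96 h monolayers (-2.57, adjusted p = 6.8e-13).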
